A study of Homo sapiens with 6 samples.

Results

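The genes described here are 35 DNA repair and checkpoint genes, picked by symbol from the 31413 genes of a count table of C42 cells, and each of the 35 had a row. C42, commonly written C4-2, is a human prostate cancer line derived from LNCaP, and a cell line is 1 lineage rather than a set of independent tumours. Cells carried a control shRNA (shCTR, 3 libraries numbered 1, 2 and 4) or an shRNA against NSD2 (shNSD2, 3 libraries numbered 1, 2 and 3), and both groups grew in RPMI with serum. NSD2, also named WHSC1, is a histone H3 methyltransferase whose main product is dimethylated lysine 36. The labels name 1 shRNA per group and leave unsaid if cultures were separate, so p-values reflect only how far the libraries vary, possibly for technical reasons. The 35 genes were sorted by role into 5 groups: homologous recombination (11 genes), the Fanconi anemia pathway (8), resection and end joining (7), mismatch repair (3) and checkpoint signalling (6).

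Homologous recombination mends a broken chromosome by copying the sister chromatid, after nucleases have cut the broken ends back to single strands (resection). The Fanconi anemia pathway removes crosslinks between the DNA strands and hands the resulting break to recombination. Mismatch repair corrects errors left by replication, and its MSH6 subunit carries a domain that binds H3K36 trimethylation. The kinases ATM and ATR, with their targets CHEK2 and CHEK1, hold the cell cycle while DNA is damaged or replication is stalled. Many of these genes are transcribed mostly in S phase under E2F transcription factors.

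NSD2 itself was at 219, 223 and 200.1 CPM in shCTR 1, 2 and 4 and at 85.3, 86.4 and 89.7 CPM in the knockdown libraries. CPM is a count scaled to a fixed library total, with TMM factors applied. The mean was 40.7% of control (edgeR quasi-likelihood test, adjusted p = 8.03e-05, and exact two-sided permutation p = 0.1, the smallest that 3 against 3 libraries allow). Libraries held 19412896 to 20665494 counts, and a floor of 3 counts was 0.145 to 0.155 CPM. All 10 luminal prostate markers had counts, summing to 11351 to 12434 CPM in shCTR and 10676 to 11134 CPM in shNSD2. Of 14 markers of leukocytes, endothelium, fibroblasts and basal cells, 8 had no row, and the other 6 summed to 8.65 to 9.49 CPM in shCTR and 10.1 to 11.3 CPM in shNSD2. The controls differed among themselves along the direction of the knockdown. On a scale where 0 is the mean of the other controls and 1 the mean of the knockdown libraries, shCTR 1, 2 and 4 lay at -0.45, -0.0010 and 0.49 over 11218 genes averaging at least 5 CPM. Over the 35 genes they lay at -0.26, -0.03 and 0.31. Thus shCTR 4 was nearest to the knockdown libraries and shCTR 1 about as far out on the other side.

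The knockdown libraries held less transcript of most of the repair genes. Of the 35, all of which passed the low-count filter, 27 fell and 0 rose at an adjusted p under 0.05 in edgeR. Across all 17160 genes tested, 30.7% were called, 15.2% lower and 15.5% higher. The 35 genes were chosen with earlier results of these data known, so their share is not independent of that choice. The same 0 rises were found by DESeq2 and limma-voom, and no member was higher at an unadjusted p under 0.05. The CPM ranges of the groups did not overlap for the same 27 genes, always on the lower side, against 22.8% of all genes tested lower and 24.0% higher. The median log2 fold change was -0.44, against 0.0054 for all genes tested. Falls were moderate, with 15 of the 27 smaller than 1.5-fold, 12 of at least 1.5-fold and 3 of at least 2-fold. The 3 genes were BRCA2, CLSPN and XRCC2. Without shCTR 4, 28 fell, ATM being added, and without shCTR 2 or without shNSD2 3 the number was 18. The share of all genes tested called lower also changed, to 22.6% without shCTR 4, 8.28% without shCTR 2 and 7.49% without shNSD2 3. RNA was taken from bulk cultures, so fewer cells in a given phase of the cell cycle and less RNA per cell cannot be told apart.

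**Figure D1:**
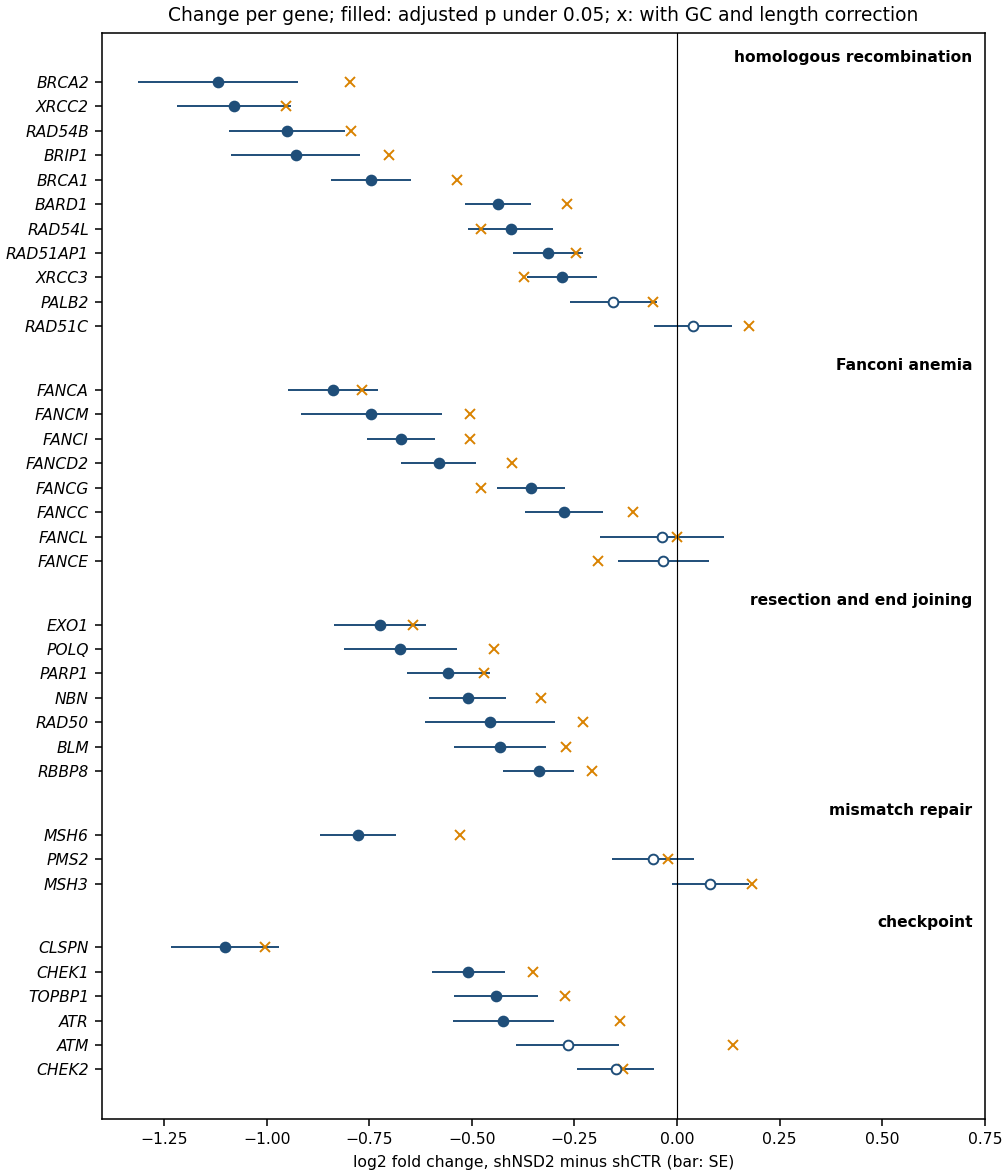
Log2 fold change of each gene (shNSD2 minus shCTR) with its standard error, by group, for 3 libraries against 3. Filled points have an edgeR adjusted p under 0.05, and crosses are the values after a correction for GC content and exon length, which turned ATM from -0.27 to 0.14. All 27 filled points lie left of 0.

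Before correction for transcript length, counts cannot be compared between genes, so levels were also divided by exon length (GENCODE 29 on GRCh38, all exons of a gene merged). In controls the median of the 35 was 7.21 CPM per kilobase. PARP1, which senses strand breaks and marks them with poly(ADP-ribose), had 74.4 CPM per kilobase, far above the next gene, FANCG, at 16.8. RAD50, the arm of the break-binding complex MRE11-RAD50-NBN, had the lowest level, 0.684 CPM per kilobase. For RAD50, 79.7% of the exon bases are shared with a second annotated gene, AC116366.3, which held 21 counts in the 6 libraries against 696 for RAD50, and how shared reads were assigned is not given.

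**Figure D2:**
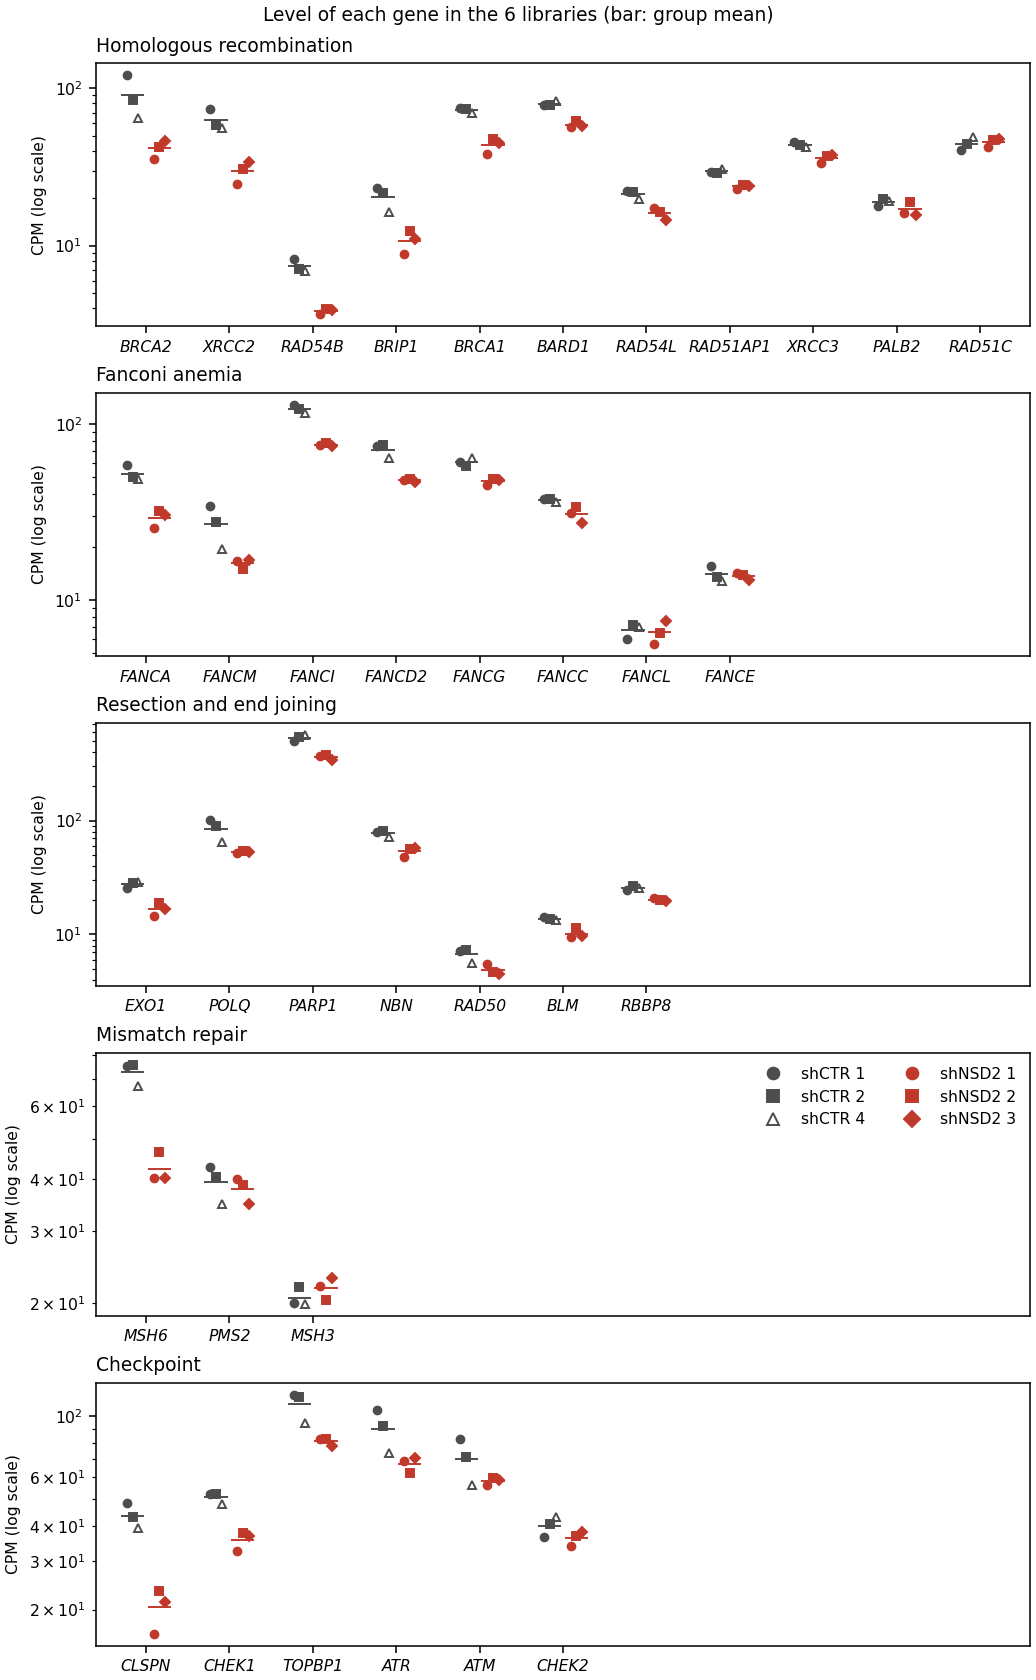
CPM of each gene in every library on a log axis, in 5 panels by group, with a bar at each group mean. Grey is shCTR (the open triangle is shCTR 4) and red is shNSD2. For 27 genes the red points lie below all grey points.

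Promoters are shown for the 3 genes that fell with the smallest p and had an E2F-type match in the RefSeq table (MSH6, CLSPN, XRCC2), and for the gene of largest p (FANCL), so that a gene that moved can be set beside one that was not called. Each line runs 5′ to 3′ on the gene's strand from 120 bases before to 30 after the annotated start. Capitals mark the E2F words (TTCCCGC, then TTGGCGC, then TTCGCGC, then TTGCCGC) and the NF-Y word CCAAT, on either strand, so that GCGGGAA and ATTGG are reverse matches. Of 4 annotated MSH6 starts, the first listed is shown. The windows are chr2:47783025-47783174 (+), chr1:35769949-35770098 (-), chr7:152676112-152676261 (-) and chr2:58241296-58241445 (-) on GRCh38.p14.
MSH6: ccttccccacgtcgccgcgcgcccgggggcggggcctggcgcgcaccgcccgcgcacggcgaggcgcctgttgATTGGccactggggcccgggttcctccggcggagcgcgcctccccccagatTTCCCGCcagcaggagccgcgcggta
CLSPN: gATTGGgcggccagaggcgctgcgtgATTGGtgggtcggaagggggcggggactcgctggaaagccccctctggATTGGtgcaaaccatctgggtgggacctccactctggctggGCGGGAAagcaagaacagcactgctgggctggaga
XRCC2: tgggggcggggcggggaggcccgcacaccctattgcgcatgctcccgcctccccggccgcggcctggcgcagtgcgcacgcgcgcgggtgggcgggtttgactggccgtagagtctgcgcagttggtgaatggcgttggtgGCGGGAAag
FANCL: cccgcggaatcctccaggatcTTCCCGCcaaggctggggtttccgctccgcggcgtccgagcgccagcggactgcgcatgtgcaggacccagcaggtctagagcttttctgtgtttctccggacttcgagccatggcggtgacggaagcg

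The CLSPN window held 3 CCAAT words and 1 E2F word that begins 5 bases before the start, MSH6 held 1 of each, and XRCC2 and FANCL held 1 E2F word and 0 CCAAT words. RefSeq gave a promoter (250 bases before to 50 after the start) for 32 of the 35 genes. An E2F word was present in at least 1 promoter of 22 of the 32 (68.8%), against 15.3% of all 27305 genes with a promoter, 24.5% of tested genes with one and 28.3% of those called lower. The matches of TOPBP1 and of MSH3 were pairs of words that overlap each other on opposite strands. CCAAT was present for 46.9% of the 32 genes and 43.0% of tested genes, and TTTGAA, the core of the CHR element of mitotic promoters, for 12.5% and 13.3%. Of the 22 genes with an E2F word 18 fell (median log2 fold change -0.44), and of the 10 without one 6 fell (median -0.38). A word match is a description of sequence and not a measured binding site.

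Among recombination genes, 9 of 11 fell. XRCC2 is a subunit of the BCDX2 complex, which acts early in homologous recombination. It was at 73.9, 58.1 and 55.9 CPM in shCTR 1, 2 and 4 and at 24.5, 30.6 and 33.9 CPM in shNSD2 1, 2 and 3. Every knockdown library lay well below every control, a log2 fold change of -1.08 (SE 0.139, edgeR adjusted p = 0.00106). BRCA1, the ubiquitin ligase that promotes resection and recruits PALB2, was at 75.1, 74.2 and 69.2 CPM in controls and 38.0, 47.6 and 44.8 CPM after knockdown. Its controls lay close together, and its level fell to 59.7% of control (log2 fold change -0.74, SE 0.0977, adjusted p = 0.00114). RAD54B, a DNA translocase of homologous recombination, was a low transcript at 8.21, 7.08 and 6.93 CPM in controls and 3.67, 3.95 and 3.88 CPM after knockdown. Its 72 to 168 counts per library gave a log2 fold change of -0.95 (SE 0.142, adjusted p = 0.00191). Of its exon bases, 59.1% are shared with FSBP on the same strand, which held 118 counts in all. FSBP was itself called lower (-1.39, edgeR adjusted p = 0.0332).

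BRCA2, a mediator of strand exchange in recombination, had the largest fold change of the 35 and, relative to its mean, the widest control spread. It was at 121, 84.4 and 64.4 CPM in shCTR 1, 2 and 4 and at 35.5, 42.5 and 46.4 CPM after knockdown, with shCTR 4 between the other controls and the knockdown libraries (log2 fold change -1.12, SE 0.195, adjusted p = 0.00351). The BRCA1-bound helicase BRIP1 was likewise lowest in shCTR 4 among controls, at 23.3, 21.6 and 16.4 CPM in controls and 8.82, 12.3 and 11.1 CPM after knockdown (-0.93, adjusted p = 0.00312). BARD1, the partner subunit of BRCA1, fell less, to 58.8 ± 3.10 CPM from 79.6 ± 2.56 CPM in controls (SD over 3 libraries, edgeR adjusted p = 0.00447), and shCTR 4 was its highest library at 82.5 CPM. With the replicate block and the GC and length correction together, BARD1 was at -0.19 and not called (adjusted p = 0.187). Smaller falls were seen for RAD54L, a RAD54 motor (-0.41), RAD51AP1, which stimulates joint molecule formation (-0.31), and XRCC3, which acts late in recombination (-0.28). These 3 calls were fragile as well. RAD54L lost its call without shCTR 2, shNSD2 2 or shNSD2 3 (adjusted p 0.0545 to 0.0802). RAD51AP1 lost it without shCTR 2 or any 1 knockdown library (0.0573 to 0.0706) and with the replicate block (0.0593), and XRCC3 in the 5 fits that left out a library other than shCTR 4 (0.0686 to 0.117), in DESeq2 (0.0549) and with no low-count filter (0.0588). KLC1 on the opposite strand covers 76.7% of XRCC3 exon bases and LRRC41 25.1% of those of RAD54L, and neither KLC1 (-0.12) nor LRRC41 (-0.16) was called. PALB2, the bridge between BRCA1 and BRCA2, was at 18.9 ± 0.969 and 16.98 ± 1.77 CPM (adjusted p = 0.283), and RAD51C, a subunit of the BCDX2 and CX3 complexes, at 44.5 ± 4.33 and 45.7 ± 2.83 CPM (SD, n = 3, edgeR adjusted p = 0.776).

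In the Fanconi pathway 6 of 8 genes fell. FANCI and FANCD2 form the clamp that is ubiquitinated when a crosslink is met. FANCI was at 128, 121 and 115 CPM in controls and 75.6, 78.0 and 74.7 CPM after knockdown, with each group tight (log2 fold change -0.67, SE 0.0826, edgeR adjusted p = 8.54e-04). FANCD2 was at 74.96, 75.96 and 63.6 CPM in controls and 48.1, 48.8 and 46.5 CPM after knockdown (-0.58, SE 0.0912, adjusted p = 0.00229). The groups of both genes stood apart, and shCTR 4 was the lowest control for each. The core complex that ubiquitinates this clamp was affected unevenly. FANCA was at 58.6, 49.8 and 48.3 CPM in controls and 25.7, 31.8 and 30.2 CPM after knockdown (-0.84, SE 0.109, adjusted p = 0.00113), a fall to 55.9% of control. ZNF276 on the opposite strand covers 23.6% of FANCA exon bases, and its own log2 fold change was -0.16 (adjusted p = 0.263). FANCG, a core subunit bound to FANCA, fell less (-0.36, adjusted p = 0.0107, and 0.0514 without shNSD2 1).

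FANCL, the ubiquitin ligase of the core complex, was at 6.01, 7.23 and 6.99 CPM in controls and 5.61, 6.52 and 7.56 CPM after knockdown. FANCE, which links the core to FANCD2, was at 15.6, 13.4 and 12.9 CPM and at 14.1, 13.9 and 13.0 CPM. The groups of both genes overlapped, with log2 fold changes of -0.04 (SE 0.151, adjusted p = 0.870) and -0.03 (SE 0.110, adjusted p = 0.838). FANCM, the translocase that anchors the core complex to DNA, fell from 34.0, 27.7 and 19.4 CPM in shCTR 1, 2 and 4 to 16.7, 14.9 and 16.8 CPM (-0.75, adjusted p = 0.0105). For FANCM the level in shCTR 4 lay 71.1% of the way from shCTR 1 and 2 to the knockdown libraries. FANCC (-0.28, adjusted p = 0.0487) was near the threshold and lost its call in the 5 fits that left out a library other than shCTR 4 (adjusted p 0.0608 to 0.195), and after the GC and length correction (0.380). It was lost too with the replicate block (-0.22, adjusted p = 0.145), plain library sizes, upper-quartile factors, DESeq2 and no low-count filter (adjusted p 0.0507 to 0.0888).

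All 7 genes of resection and end joining were called lower, RAD50 only at the threshold. EXO1, the exonuclease of long-range resection that also excises mismatched strands, was at 25.5, 28.3 and 29.1 CPM in controls and 14.5, 18.8 and 16.9 CPM after knockdown. The gap between its groups was wider than either group (log2 fold change -0.72, SE 0.112, edgeR adjusted p = 0.00217). PARP1 was at 495, 538 and 566 CPM in controls and 372, 375 and 339 CPM after knockdown (-0.56, SE 0.101, adjusted p = 0.00407). NBN, which brings ATM to breaks, was at 79.0, 80.3 and 72.2 CPM in controls and 48.3, 56.5 and 57.7 CPM after knockdown (-0.51, SE 0.0940, adjusted p = 0.00437). PARP1 and EXO1 were highest in shCTR 4, whereas NBN was lowest there among controls. POLQ, the polymerase of microhomology-mediated end joining, fell from 100.3, 89.8 and 64.8 CPM in shCTR 1, 2 and 4 to 51.9, 54.4 and 53.5 CPM (-0.67, adjusted p = 0.00638), and shCTR 4 lay 65.9% of the way to the knockdown level.

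The smaller falls in this group were those of the helicase BLM (-0.43, adjusted p = 0.0170), the resection factor RBBP8, also called CtIP (-0.34, adjusted p = 0.0170), and RAD50 (-0.46, adjusted p = 0.0499). RAD50 was at 7.09, 7.37 and 5.58 CPM in controls and 5.46, 4.67 and 4.51 CPM after knockdown, so that shCTR 4 was just above the highest knockdown library. The RAD50 call was lost in 13 of 16 alternatives. These were the 5 fits that left out a library other than shCTR 4 (adjusted p 0.0633 to 0.176), plain library sizes, upper-quartile factors, DESeq2, limma-voom, no low-count filter and the replicate block (0.0526 to 0.0926), and both fits with the GC and length correction. BLM lost its call without shCTR 2, shNSD2 1 or shNSD2 3 (0.0579 to 0.0763), and RBBP8 without shCTR 2, shNSD2 2 or shNSD2 3 (0.0702 to 0.0768). Without shCTR 2, and also without shNSD2 3, 4 of the 7 genes fell. After the GC and length correction 4 fell as well, and BLM (adjusted p = 0.0751), RBBP8 (0.0904) and RAD50 (0.240) were no longer called.

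Of the 3 mismatch repair genes only MSH6 fell, and it had the smallest p of all 35. MSH6 is the subunit that recognises single mismatches. It was at 75.1, 75.7 and 67.2 CPM in controls and 40.3, 46.6 and 40.2 CPM after knockdown, and no library of one group came near the other (log2 fold change -0.78, SE 0.0931, edgeR adjusted p = 7.54e-04). It ranked 119 of 17160 genes by p, and its log2 fold change was -0.53 after the GC and length correction (adjusted p = 0.00175). MSH6 lies on chromosome 2 from 47695530 to 47810101 in GENCODE 29, where FBXO11 on the opposite strand covers 16.2% of its exon bases, and FBXO11 was not called (-0.19, adjusted p = 0.123). MSH3, which recognises longer loops, was at 20.6 ± 1.08 and 21.8 ± 1.29 CPM, and PMS2, the nuclease subunit, at 39.4 ± 4.05 and 37.8 ± 2.70 CPM (SD, n = 3, edgeR adjusted p = 0.535 and 0.675). PMS2 has near-identical copies, of which PMS2CL held 1630 and PMS2P1 1399 counts against 4637 for PMS2, and its reads may be divided over these loci.

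Of 6 checkpoint genes 4 fell, those of the ATR branch. CLSPN, the adaptor that lets ATR activate CHEK1 at stalled forks, was at 48.4, 43.1 and 39.5 CPM in controls and 16.4, 23.4 and 21.3 CPM after knockdown. Its lowest control was well above its highest knockdown library (log2 fold change -1.10, SE 0.132, edgeR adjusted p = 7.71e-04). CHEK1, the kinase downstream of ATR, was at 52.1, 52.3 and 48.0 CPM in controls and 32.5, 37.8 and 36.8 CPM after knockdown (-0.51, SE 0.0894, adjusted p = 0.00363). TOPBP1, the activator of ATR, was at 120, 117 and 94.1 CPM in shCTR 1, 2 and 4 and at 82.4, 83.0 and 78.2 CPM after knockdown (-0.44, SE 0.103, adjusted p = 0.0110). TOPBP1 in shCTR 4 lay 60.5% of the way to the knockdown level, and its call was lost without shCTR 2 (adjusted p = 0.0544) and without shNSD2 3 (0.0566). In each of those fits 2 of the 6 checkpoint genes fell.

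ATR was at 105, 91.8 and 73.4 CPM in shCTR 1, 2 and 4 and at 68.7, 62.5 and 70.4 CPM after knockdown (-0.42, SE 0.123, edgeR adjusted p = 0.0262). The ATR call was lost in the 5 fits that left out a library other than shCTR 4 (adjusted p 0.0657 to 0.104) and after the GC and length correction (-0.14, adjusted p = 0.283). ATM was at 83.0, 71.4 and 56.4 CPM in controls and 56.6, 59.9 and 58.8 CPM after knockdown. Its lowest library of all was thus shCTR 4, and the log2 fold change of -0.27 was not called (adjusted p = 0.124). Without shCTR 4 it was -0.40 and called (adjusted p = 0.00102). In the replicate block shCTR 4 is alone at its number and does not enter the comparison, and the value was likewise -0.40 and called (0.00433). After the GC and length correction it turned to 0.14 (adjusted p = 0.235). CHEK2, the kinase downstream of ATM, was at 40.2 ± 3.44 and 36.2 ± 2.11 CPM (SD, n = 3, adjusted p = 0.242). Whether the ATR and ATM branches differed in their change was not tested.

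**Figure D3:**
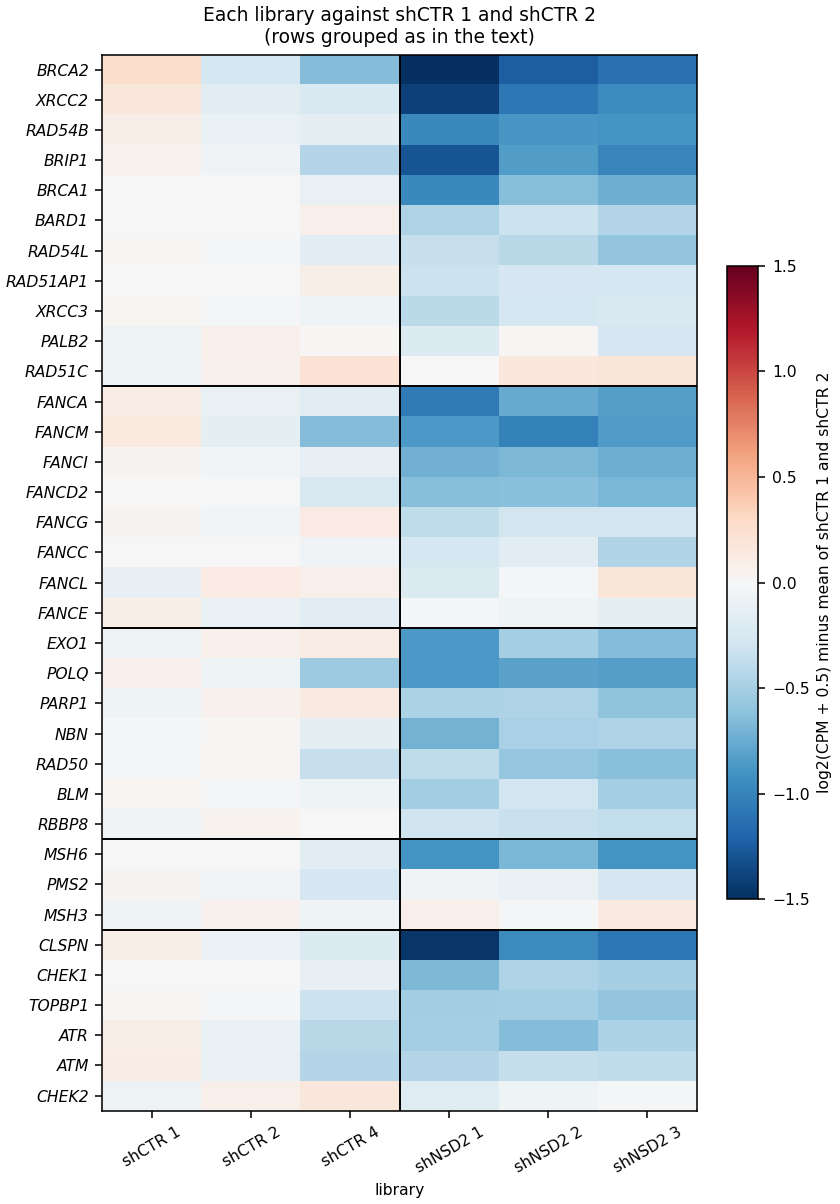
Each gene (rows, grouped as in the text) in each library (columns), as log2(CPM + 0.5) minus the mean of shCTR 1 and shCTR 2, with blue for lower and red for higher. Averaged over the 35 genes, shCTR 4 stood at -0.15 and the knockdown libraries at -0.59, -0.47 and -0.52.

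The place of shCTR 4 differed from gene to gene. Averaged over the 35 genes, its shift from shCTR 1 and 2 was 28.3% of that of the knockdown libraries. By group this was 20.6% for recombination, 30.8% for Fanconi, 22.3% for resection and end joining, and 41.1% for checkpoint genes. In mismatch repair it was 53.2% over the 3 genes, the highest of the 5 groups, and 19.9% for MSH6, the gene that fell. Across the 27 genes that fell, the percentage was higher for genes with more exon sequence (Spearman rho 0.56 over 27 genes of the same 6 libraries, 0.33 over 1962 genes called lower with at least 5 CPM). For GC content the values were -0.17 and -0.09. Over all 11218 tested genes with at least 5 CPM, whether called or not, the values were -0.04 for exon length and -0.06 for GC content. These are descriptions across genes, which are not independent replicates. The part of shCTR 4 in each change was not tested beyond the fit without it. In that fit the 27 genes remained lower, with a median over the 35 genes of -0.54.

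Other genes of the same pathways, also listed with earlier results of these data known, were less uniform. Of 34 other recombination genes tested, 10 fell and 3 rose (median log2 fold change -0.12). Those of smallest p were C1orf112, a cofactor of FIGNL1 (-0.84), the AAA ATPase gene FIGNL1 (-0.67), and TOP3A, the topoisomerase partner of BLM (-0.71), with edgeR adjusted p of 8.33e-04, 0.00103 and 0.00103. The number that rose was 5 without shCTR 4 and 0 or 1 without any other library. Of 14 other Fanconi genes, 4 fell and 3 rose, with 5 rising without shCTR 4 and 0 without any other library. Their median log2 fold change was 0.11, and 8 of the 14 had a positive value. Over all genes tested, 23.9% were called higher without shCTR 4 and 6.33% to 8.51% without any other library. The Fanconi genes of smallest p in this list all fell. USP1, the protease that removes ubiquitin from FANCD2, fell from 81.4 ± 5.58 to 54.0 ± 1.61 CPM, the ubiquitin ligase gene RFWD3 by 0.61 on the log2 scale and the core subunit gene FANCB by 0.997 (edgeR adjusted p = 0.00160, 0.00223 and 0.00706). The list of 9 other mismatch repair genes also held SETD2, an H3K36 methyltransferase, and PCNA, which was counted among replication genes too. Of these 9 all had a negative log2 fold change and 2 were called, the clamp loader gene RFC1 (-0.35) and POLD1 of polymerase delta (-0.27). POLD1 lost its call in 5 of the 6 fits without a library (adjusted p up to 0.112) and RFC1 without shCTR 2, shNSD2 2 or shNSD2 3 (0.0570 to 0.0663). After the GC and length correction RFC1 was at -0.19 (adjusted p = 0.0800), and with the replicate block added at -0.17 (0.261). Of 20 other checkpoint genes 6 fell and 0 rose by edgeR. They included the damage adaptor MDC1 (-0.77), the kinase WEE1, which restrains entry to mitosis (-0.69), and the phosphatase CDC25A (-0.60), with adjusted p of 0.00106, 0.00141 and 0.00234. Of the same 20, 0 were higher at an unadjusted p under 0.05, and 0 in DESeq2 and in limma-voom.

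Repair routes that act outside recombination are set beside the 15.2% lower and 15.5% higher of all genes tested, and no route is singled out from these small counts. Of 16 genes in the list of non-homologous end joining, which also held the H4K20 methyltransferase genes KMT5A, KMT5B and KMT5C, 2 fell and 2 rose. RIF1, which blocks resection, fell to 54.9 ± 2.28 CPM from 99.2 ± 32.1 CPM in controls, and PRKDC, the kinase DNA-PKcs, to 672 ± 98.3 from 1133 ± 273 CPM (edgeR adjusted p = 0.00960 and 0.0127, SD over 3 libraries). In shCTR 4 they stood 77.2% and 68.1% of the way to the knockdown level, and PRKDC lost its call without shCTR 2 and without shNSD2 3 (adjusted p = 0.0557 and 0.0642). KMT5C rose by 0.57. In base excision and single-strand break repair 3 of 22 fell and 7 rose. The flap nuclease gene FEN1, which also acts in replication, fell by 0.72 and the uracil glycosylase gene UNG by 0.42, and the glycosylase gene NEIL2 rose by 0.39 (adjusted p = 0.00132, 0.00586 and 0.0210). In nucleotide excision repair 1 of 19 fell and 3 rose, among them ERCC1 (0.48) and CETN2 (0.57). NEIL2 and CETN2 lost their calls in the 5 fits that left out a library other than shCTR 4 (adjusted p up to 0.0810 and 0.136). Of 15 genes of translesion synthesis and damage tolerance 3 fell and 1 rose. The 3 were POLN (-0.73), REV3L (-0.59) and RAD18 (-0.39), each lost in the same 5 fits (adjusted p up to 0.109, 0.1101 and 0.137). After the GC and length correction REV3L was at -0.30 (adjusted p = 0.142) and RAD18 at -0.22 (0.141), neither called. The number of rises in these lists changed with the library left out, as did the number over all genes tested. In base excision repair 8 genes rose without shCTR 4 but 0 or 1 without any other library. In nucleotide excision repair the numbers were 7 against 1 or 2. Of all genes tested, 23.9% were called higher without shCTR 4 and 6.33% to 8.51% without any other library. KMT5C and ERCC1 were called higher in all 16 alternative fits.

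**Figure D4:**
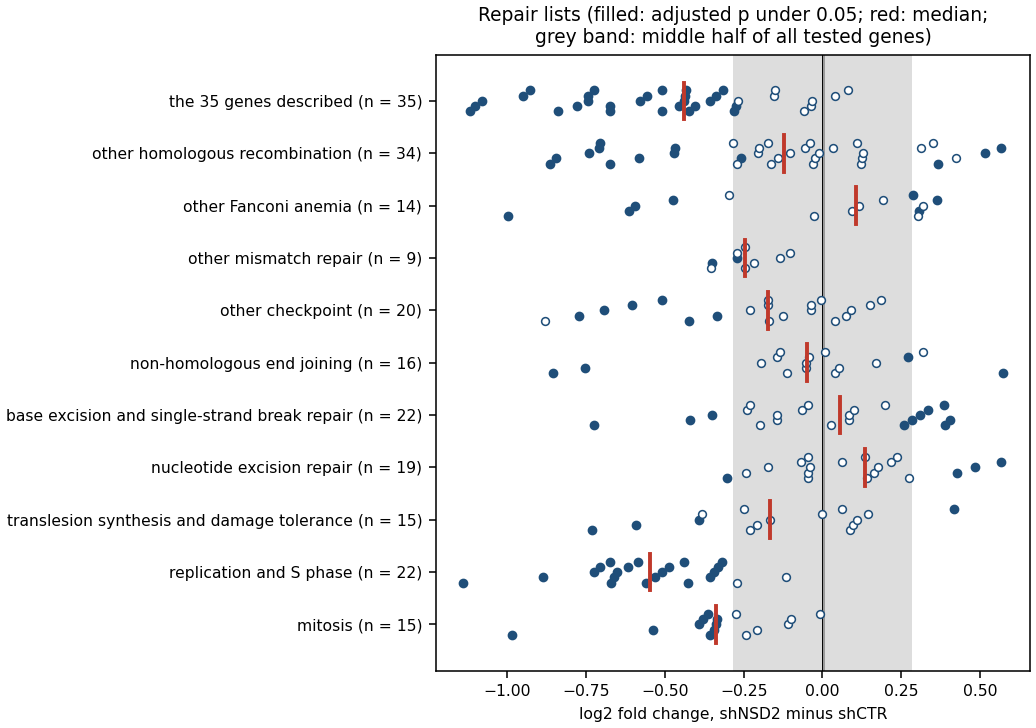
Log2 fold change of every tested gene of each list, with filled points for an edgeR adjusted p under 0.05, a red bar at the list median and a grey band over the middle range of all tested genes. Medians were -0.44 for the 35 genes, -0.12 for other recombination genes, 0.06 for base excision, 0.14 for nucleotide excision repair and -0.55 for replication genes.

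Replication and mitosis genes moved beside the repair genes. Of 22 replication and S-phase genes 20 fell and 0 rose (median -0.55), among them POLA1 (-0.67), GINS1 (-0.62) and E2F1 (-0.71). With a library left out the number that fell was 15 to 21. E2F1 was at 98.5 ± 7.29 and 60.4 ± 4.04 CPM (SD, n = 3, edgeR adjusted p = 0.00110). Of 15 mitotic genes 9 fell and 0 rose (median -0.34), MKI67 by 0.99, BUB1B by 0.39 and KIF11 by 0.38. PLK1, called lower, was counted among both these and the other checkpoint genes. Without shCTR 2, shNSD2 1 or shNSD2 2 the mitotic count was 4, and without shNSD2 3 it was 5. Of all genes tested, 7.49% to 9.07% were called lower in these fits. None of the replication or mitotic genes was higher at an unadjusted p under 0.05, or called higher by edgeR, DESeq2 or limma-voom (0 and 0). In shNSD2 1, 2 and 3, the mean log2 shift from shCTR 1 and 2 was -0.66, -0.46 and -0.47 for replication genes and -0.59, -0.47 and -0.52 for the 35 repair genes. The part of a changed share of cycling cells in the fall of the repair genes was not tested. For shCTR 4 the shift of replication genes was 0.05, on the control side, whereas that of the 35 genes was -0.15.

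**Figure D5:**
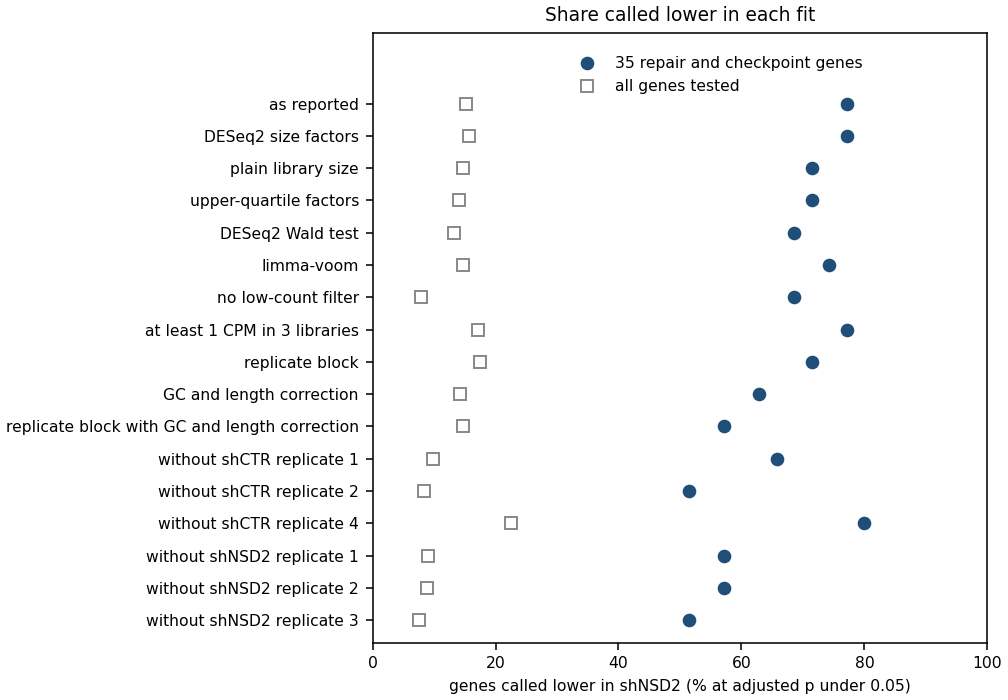
Percentage of genes called lower at an adjusted p under 0.05 in each fit, for the 35 genes (filled) and for all genes tested (open squares). As reported the values were 77.1% and 15.2%, and the filled point lies right of the square in every fit shown. The 35 genes were chosen with earlier results of these data known.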

How the data were processed

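RNA was sequenced from 6 libraries of C42 cells, 3 shCTR and 3 shNSD2. The deposited table holds raw read counts per gene and appears unnormalized, since all values are whole and column totals differ. CASAVA 1.8.2, the aligner STAR 2.6.0a and the build GRCh38 are named in the submitters' processing notes. For the counting program, strand setting and row filter the status is: not given in the sources used here. Hence it is not known if reads of overlapping genes on opposite strands were told apart. Library preparation used a KAPA mRNA kit, per the labels' protocols.

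Groups came from the sample titles. Counts were fitted with edgeR 4.0.16 in R 4.3.3 (filterByExpr, TMM, glmQLFit and glmQLFTest, no covariate) over 17160 genes, with Benjamini-Hochberg adjustment over all of them and calls at an adjusted p under 0.05. The filter removed 14253 genes. Standard errors came from the fold change and F statistic. Floors cover counting error only, whereas standard errors and SDs also include differences between libraries. The fit was also run on simulated counts, with the same dispersion for all genes and no shared differences among controls. It recovered 89% of 1.5-fold and 100% of 2-fold changes set in genes above 5 CPM, and 9 of 198 calls were false. The simulation does not cover the differences among the controls described above.

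Alternatives were other scaling factors, other filters, DESeq2 1.42.0, limma-voom 3.58.1, each library left out, the replicate number as a block, and a correction of each library's smooth trend on GC content and exon length (mgcv 1.9.3, 17111 tested genes with values). The GC and length trend was fitted without regard to group, so its correction also removes any group difference that follows either. In the block, shCTR 4 and shNSD2 3 are each alone at their number, so only libraries 1 and 2 of each group are compared. The members and lists were chosen with earlier results of these data known. All members are named, with per-library values for the called members of smallest p in each group, the 2 of largest adjusted p, and BRCA2, BRIP1, FANCM, POLQ, RAD50, ATR and ATM, which were added after their values were seen. From each pathway list up to 3 called genes of smallest p are named. A gene that this rule would name in nucleotide excision repair is not reported here.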

Additional observations from a re-analysis of the deposited data

How the results depend on the processing

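The number of the 35 genes called lower was 27 and ran from 20 to 27 over 10 other settings and from 18 to 28 with a library left out, and 0 were called higher in all of these fits. The share of all genes tested called lower ran from 7.96% to 17.5% over the other settings. With a library left out that share ran from 7.49% to 22.6%. Of the single genes, 16 were called lower in every fit. The median log2 fold change ran from -0.52 to -0.35 over the other settings, with -0.35 after the GC and length correction, and from -0.54 to -0.42 with a library left out. Resection and end joining had 4 called genes after that correction and 4 when it was joined to the replicate block, and 4 to 7 with a library left out. Checkpoint genes called lower numbered 2 to 5 with a library left out. Those fits had 5 libraries instead of 6.

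Signs turned only for genes that were not called. ATM was at 0.14 after the GC and length correction and at 0.060 with the block added, and PALB2 at 0.0029 in the latter fit. With a library left out RAD51C ran from -0.033 to 0.12, FANCE from -0.0882 to 0.044 (0.00045 without shNSD2 3), and FANCL from -0.15 to 0.067 (0.017 without shCTR 2). The cause was not tested. Replicate numbers 1 and 2 are shared between the groups, but the labels do not say that a number marks a pair. Deviations of same-numbered libraries correlated at 0.04 and -0.18. For differently numbered libraries the values ran from -0.43 to 0.48. The highest were shCTR 2 with shNSD2 1 (0.48) and shCTR 4 with shNSD2 3 (0.43), so the block does not follow the strongest of these correlations. With the replicate block, which compares only libraries 1 and 2 of each group, 25 genes were lower, and 20 with the correction as well. Among other checkpoint genes 5 to 8 were lower and 0 or 1 higher over all settings. Depth did not limit the 35 genes at the filter, since the lowest count was 72.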
